A study of Mus musculus with 4 samples.

Results

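Transcripts from 7 liver genes, described as nearly silent in wild-type (WT) mice and present in mice lacking Fto (KO), were followed gene by gene: Moxd1, Adgrf1, Capn8, Wdr72, Gdpd3, Cacna1a and B020031M17Rik. These 7 genes, of 37315 gene identifiers in the count files, were chosen because their reads were few in WT libraries and many in KO libraries. Their difference between the genotypes is therefore given as a description, without a test. The wording held for Moxd1, Wdr72, Gdpd3 and B020031M17Rik, which had between 0 and 3 reads in every WT library. It did not hold for Capn8, Adgrf1 and Cacna1a, which were present in WT liver at a lower level.

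The groups were Fto knockout liver and wild-type liver, with 2 libraries each, all from C57BL/6 mice of 23 weeks. The labels give no sex, no description of the knockout allele, no cell type in which Fto was removed and no statement that libraries came from separate animals, and the p-values below therefore weigh differences only against library-to-library spread, possibly technical. Polyadenylated RNA was sequenced as paired reads of 101 bases with a kit that does not mark the strand. The libraries held 44689114 and 40947808 counts in KO replicates 1 and 2, and 41332870 and 39549592 counts in WT replicates 1 and 2. Fto itself had 607 and 486 reads in KO, against 1749 and 1292 in WT (log2 fold change -1.57, adjusted p = 0.0109, edgeR quasi-likelihood test), so the libraries labelled KO held fewer Fto reads but were not free of them.

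Apart from B020031M17Rik, to which no family is assigned here, the genes belong to unrelated protein families. FTO, an iron-dependent dioxygenase, strips methyl marks such as N6-methyladenosine from RNA, and that mark is laid down in a sequence context that often contains GGAC. Moxd1 encodes a membrane protein of the endoplasmic reticulum that resembles dopamine beta-hydroxylase, a copper-dependent monooxygenase. Gdpd3 encodes a phosphodiesterase that acts on lysophospholipids and can release lysophosphatidic acid. Capn8 encodes a calpain, a calcium-dependent protease, best known from surface mucous cells of the stomach. Adgrf1, also called Gpr110, encodes an adhesion receptor coupled to G proteins. Cacna1a encodes the pore-forming subunit of P/Q-type calcium channels, which trigger transmitter release at synapses. Wdr72 encodes a protein with WD repeats that is needed for the maturation of tooth enamel in mouse and human. B020031M17Rik is a protein-coding gene known by its clone name.

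RefSeq promoter windows, from 250 bases before to 50 bases after the gene's start in build GRCm38.p6, matched 4 of the 7 genes: Moxd1, Capn8, Gdpd3 and Adgrf1. A total of 9 short motifs were searched on both strands, namely the STAT motif TTCNNNGAA, the TATA box as TATAAA, the CCAAT box, the cyclic AMP response motif TGACGTCA, the AP-1 motif TGANTCA, the E-box as CACGTG, the GATA motif AGATAA, the DR1 repeat of nuclear receptors and the palindrome of HNF1. The windows of Moxd1 and Capn8 are shown because they were the only 2 of the 4 with any match, and because Moxd1 had the widest separation of the genotypes. Capitals mark the matches, and no match overlapped another.
Moxd1 (chr10:24223267-24223566, plus strand): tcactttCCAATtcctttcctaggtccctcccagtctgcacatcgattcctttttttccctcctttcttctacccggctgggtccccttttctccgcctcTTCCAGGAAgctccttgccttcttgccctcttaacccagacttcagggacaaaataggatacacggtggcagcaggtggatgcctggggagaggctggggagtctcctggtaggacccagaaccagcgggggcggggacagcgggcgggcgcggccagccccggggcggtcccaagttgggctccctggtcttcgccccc
Capn8 (chr1:182564757-182565056, plus strand): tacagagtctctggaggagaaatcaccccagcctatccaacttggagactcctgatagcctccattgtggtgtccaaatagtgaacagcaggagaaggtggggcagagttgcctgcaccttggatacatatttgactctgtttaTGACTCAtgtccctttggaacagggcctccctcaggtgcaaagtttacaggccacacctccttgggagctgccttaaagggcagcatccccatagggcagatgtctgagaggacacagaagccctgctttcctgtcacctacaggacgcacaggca

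In the Moxd1 window, TTCCAGGAA begins 150 bases before the start and fits TTCNNNGAA, the letters that STAT5 dimers are known to bind. That motif was present in 8.3% of 32851 mouse promoter windows of the same length. CCAAT, 243 bases before the Moxd1 start, was present in 37.4% of windows. The Capn8 window held TGACTCA, a form of TGANTCA that AP-1 factors are known to bind, 106 bases before the start, and 7.81% of windows held that motif. The remaining 6 motifs had no match in the 4 windows: TATAAA (held by 13.6% of windows), AGATAA (11.2%), CACGTG (7.15%), TGACGTCA (1.79%), DR1 (0.0396%) and the HNF1 palindrome (0.00913%). The Moxd1 window was richer in CG dinucleotides, with 13, than those of Gdpd3 (7), Adgrf1 (2) and Capn8 (1). Over all windows the median was 7 and the quartiles were 3 and 20. Moxd1 and Gdpd3 thus lay between the quartiles, and Adgrf1 and Capn8 below them. A match describes letters in the window and nothing about binding in these livers.

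Among enzymes, Moxd1 had 659 and 303 reads in KO replicates 1 and 2, against 1 and 2 reads in WT. As TMM-scaled CPM, the read count relative to library size, this gave 14.2 and 7.57 in KO and 0.0236 and 0.0525 in WT, a mean of 10.9 ± 4.72 CPM in KO and 0.0381 ± 0.0205 CPM in WT (SD, n = 2 each). Both KO libraries were far above both WT libraries, and KO replicate 1 was the highest. The KO over WT ratio of summed reads was 299, and its exact 95% interval, which reflects only counting error, ran from 102 to 1453. The gene (ENSMUSG00000020000) lies on the plus strand of chromosome 10 from 24223517 to 24302790 (mm10, GENCODE M21).

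Gdpd3, the lysophospholipid phosphodiesterase gene, had 163 and 103 reads in KO against 2 and 3 in WT. Its mean level was 3.05 ± 0.673 CPM in KO and 0.0630 ± 0.0224 CPM in WT (SD, n = 2 each), a ratio of 49.6 with a counting interval from 21 to 154. The genotypes did not overlap, and the WT libraries were close to 0. Gdpd3 (ENSMUSG00000030703) lies on chromosome 7 from 126766334 to 126775649, plus strand. An antisense gene, Gm9967, covers 298 of its exonic bases. The libraries do not mark the strand, and Gm9967 itself had 13 and 5 reads in KO and 6 and 1 in WT.

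Capn8, the calpain gene, was the most abundant of the 7 in both genotypes. It had 871 and 466 reads in KO, against 111 and 73 in WT. That corresponds to 15.2 ± 5.09 CPM in KO and 2.27 ± 0.495 CPM in WT (SD, n = 2 each), so that the WT level was 14.9% of the KO level. The summed ratio was 6.78, with a counting interval from 5.81 to 7.95. Capn8 was thus higher in both KO libraries, but it was clearly detected in WT liver. It lies on chromosome 1 from 182565007 to 182632352, plus strand (ENSMUSG00000038599).

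Of the 2 membrane signalling genes, the adhesion receptor gene Adgrf1 had 845 and 419 reads in KO against 49 and 33 in WT. Its level was 14.4 ± 5.52 CPM in KO and 1.01 ± 0.204 CPM in WT (SD, n = 2 each), a ratio of 14.4 with a counting interval from 11.5 to 18.2. Both KO libraries were above both WT libraries, and WT replicates 1 and 2 had 1.16 and 0.867 CPM. Adgrf1 (ENSMUSG00000041293) lies on chromosome 17 from 43270329 to 43324737, plus strand.

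Cacna1a, the calcium channel gene, had 152 and 108 reads in KO and 22 and 17 in WT. The mean was 2.99 ± 0.416 CPM in KO and 0.483 ± 0.0510 CPM in WT (SD, n = 2 each), a ratio of 6.22 with a counting interval from 4.43 to 8.95. Both KO libraries were above both WT libraries, and its ratio was close to that of Capn8 at a much lower level. Cacna1a (ENSMUSG00000034656) lies on chromosome 8 from 84388440 to 84640246, plus strand, 6.67 Mb from Fto on the same chromosome. The antisense gene Gm16183, which shares exonic bases with it, had 1 and 4 reads in KO and 0 and 0 in WT.

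Wdr72, the enamel protein gene, had 132 and 84 reads in KO against 0 and 2 in WT, which is 2.48 ± 0.535 CPM in KO and 0.0263 ± 0.0371 CPM in WT (SD, n = 2 each). The ratio was 101, and its counting interval, from 27.6 to 837, was wide because only 2 WT reads were seen. B020031M17Rik had 60 and 52 reads in KO and 0 in each WT library. Set against a floor of 3 reads over both WT libraries, it was at least 34.8-fold higher in KO. Its KO level was the lowest of the 7 in CPM, at 1.30 in each library. Wdr72 (ENSMUSG00000044976) lies on chromosome 9 from 74110356 to 74283308, plus strand, and B020031M17Rik (ENSMUSG00000078537) on chromosome 13 from 119949357 to 119950806, minus strand.

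**Figure D1:**
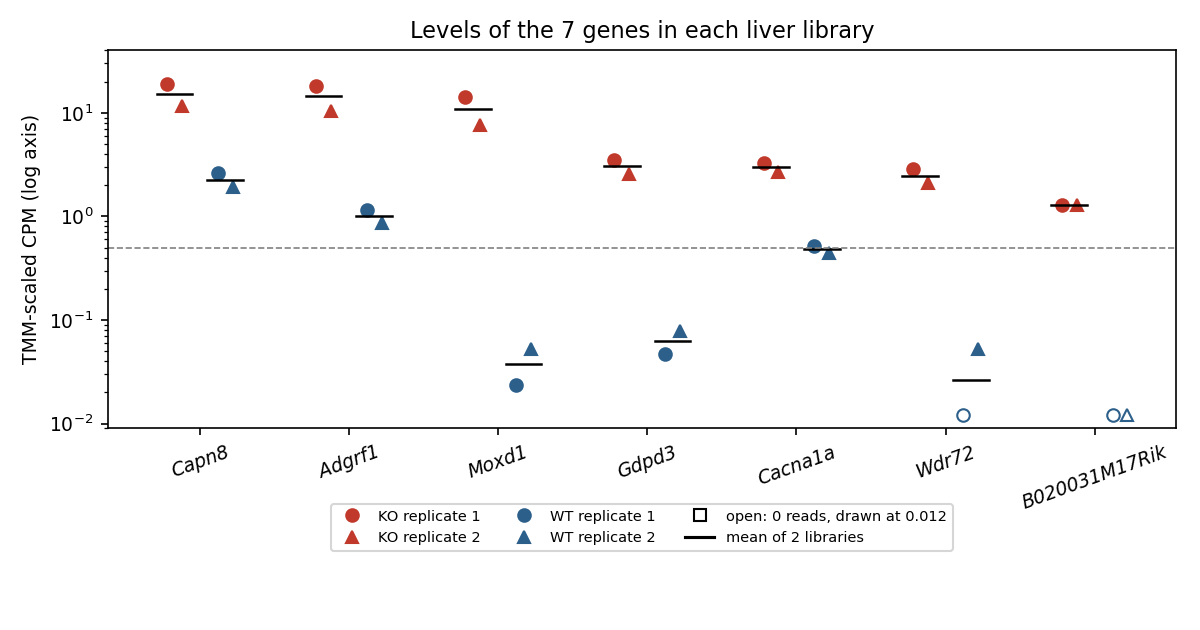
TMM-scaled CPM of each of the 7 genes (log axis) in the KO libraries (red) and the WT libraries (blue), with circles for replicate 1, triangles for replicate 2, bars for the mean of 2 libraries, open symbols for 0 reads and a dashed line at 0.5 CPM. Capn8 and Adgrf1 stay above 0.5 CPM in WT, Cacna1a lies beside the line, and the other 4 genes lie below 0.1 CPM in WT.

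Fitted log2 fold changes, with a prior count of 2, were 7.0 for Moxd1, 5.11 for Wdr72, 4.81 for Gdpd3, 4.81 for B020031M17Rik, 3.76 for Adgrf1, 2.72 for Capn8 and 2.52 for Cacna1a. The median of the 7 was 4.81, against 0.006 over all 13836 genes tested. For the 4 genes with 5 or fewer WT reads these values depend on the prior count, and the read counts above describe them better. All 7 genes passed the filter on low counts, 4 of them only through their KO libraries. All 7 had both KO libraries above both WT libraries, as had 21.6% of tested genes, and their choice fixed this. In bulk liver, a change in the number of cells of a type and a change in RNA per cell cannot be told apart.

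The description can be put in numbers over the whole table. A gene was taken as switch-like when every WT library was under 0.5 CPM, every KO library was at or above 0.5 CPM and the lowest KO level was at least 4 times the highest WT level, a WT level of 0 being set to 1 read. Of 21841 annotated genes with any read, 25 met this (0.114%), and 25 met the mirror condition, near absent in KO and expressed in WT (also 0.114%). The 25 included 4 of the 7 genes. The lowest KO level was 144 times the highest WT level for Moxd1, 39.95 times for Wdr72 and 32.7 times for Gdpd3. B020031M17Rik had no WT read, and its lowest KO level was 49.4 times a WT level set to 1 read. Cacna1a fell just outside, with 0.519 CPM in WT replicate 1, while Adgrf1 and Capn8 reached 1.16 and 2.62 CPM there. Without WT replicate 1, Cacna1a met the condition as well. Counts of switch-like genes were larger with fewer libraries to satisfy: 42 without KO replicate 1, 40 without KO replicate 2, 49 without WT replicate 1 and 40 without WT replicate 2.

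The named protein-coding genes most like the 4, ranked by the ratio of the lowest KO to the highest WT level over the 4 libraries, were Tff3, Sult1e1, Acsm2, Prtn3 and Kcnk1. They were selected on the genotype difference and are also given without a test. Tff3, a trefoil peptide of mucous epithelia, had 29 and 37 reads in KO and 1 and 0 in WT. Sult1e1, the estrogen sulfotransferase, had 200 and 117 in KO and 9 and 8 in WT. Acsm2, an acyl-CoA synthetase for medium-chain acids, had 146 and 118 in KO and 13 and 7 in WT. Prtn3, a protease of neutrophil granules, had 27 and 32 in KO and 0 and 3 in WT. Kcnk1, a potassium channel, had 53 and 22 in KO and 3 and 3 in WT. Every one of these 5 was lower in KO than Moxd1 in CPM, and each had a narrower ratio than Moxd1, Wdr72 and Gdpd3.

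**Figure D2:**
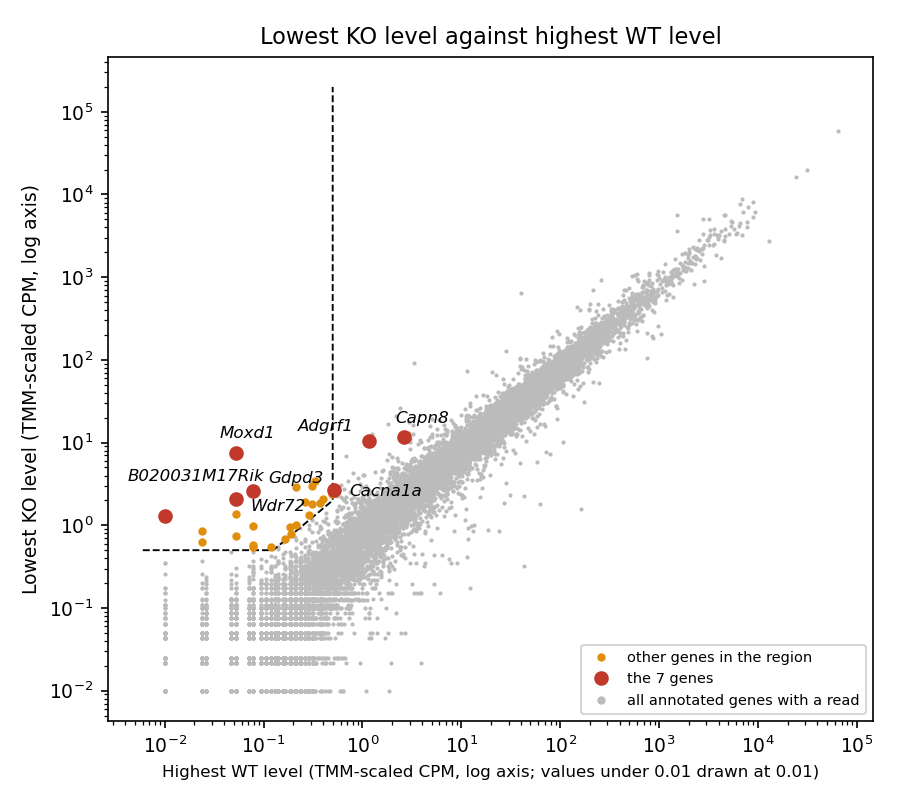
For each annotated gene with a read, the lowest level in the 2 KO libraries against the highest level in the 2 WT libraries (TMM-scaled CPM, log axes), with the 7 genes in red, the 21 other switch-like genes in orange and the limits of the condition dashed. Moxd1, Gdpd3, Wdr72 and B020031M17Rik lie inside the limits and Cacna1a, Adgrf1 and Capn8 to the right of them.

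Levels of different genes were compared per length, as CPM divided by the length of the longest annotated transcript in kilobases. In KO liver the order was Capn8 (6.14 ± 2.05 CPM per kb), Adgrf1 (3.73 ± 1.43), Moxd1 (3.53 ± 1.53), Gdpd3 (2.66 ± 0.586), B020031M17Rik (1.40 ± 0.0012), Wdr72 (0.477 ± 0.103) and Cacna1a (0.378 ± 0.0526), each as SD over n = 2. The order was the same in each KO library. The ranges of Capn8 and Adgrf1, of Adgrf1 and Moxd1, of Moxd1 and Gdpd3, and of Wdr72 and Cacna1a overlapped between the KO libraries, although within each library the order held. Capn8, for example, had 7.59 against 4.74 CPM per kb for Adgrf1 in KO replicate 1, and 4.69 against 2.72 in KO replicate 2. By this length, Gdpd3 was above B020031M17Rik, and B020031M17Rik above Wdr72, in every pair of KO libraries. The order can depend on the length chosen. All annotated exons together cover 2186 bases in Gdpd3 and 3770 in Capn8, against longest transcripts of 1148 and 2483 bases. B020031M17Rik has 925 bases by either length. Levels per exonic length were not computed, so the order of genes with close values is not settled. In WT liver Capn8 was also first, at 0.913 ± 0.199 CPM per kb, followed by Adgrf1 at 0.263 ± 0.0530 (SD, n = 2 each).

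The KO libraries did not carry the 7 genes equally. Moxd1, Adgrf1 and Capn8 were all higher in KO replicate 1, with log2 ratios of replicate 2 over replicate 1 of -0.91, -0.80 and -0.69. Among protein-coding genes of similar transcript length whose KO mean reached 1 CPM, these ratios stood at percentiles 1.78, 2.65 and 2.05. The medians of the classes were 0.00 for transcripts of 3000 to 4500 bases, which hold Moxd1 and Adgrf1, and 0.11 for transcripts of 1500 to 3000 bases, which hold Capn8. Gdpd3 followed at -0.45, percentile 4.26 of its class of transcripts under 1500 bases, whose median was 0.18.

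Wdr72, Cacna1a and B020031M17Rik were nearer to other genes of their length. Their log2 ratios were -0.44, -0.28 and 0.00, at percentiles 20.7, 57.4 and 24.4. Cacna1a, with the longest transcript of the 7 at 7926 bases, was close to the median of -0.35 for transcripts of 6000 bases or more. In WT liver the 3 genes with enough reads were also lower in replicate 2, with log2 ratios of -0.41 for Adgrf1, -0.45 for Capn8 and -0.22 for Cacna1a. The WT medians of their length classes were 0.0, 0.17 and -0.4, so Cacna1a was not lower there than genes of its length. Each library is a single sample, and its part in the difference from WT was measured by leaving it out. Without KO replicate 1 the log2 fold change was 6.45 for Moxd1, 3.31 for Adgrf1 and 2.34 for Capn8, and without KO replicate 2 it was 7.39, 4.10 and 3.02.

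**Figure D3:**
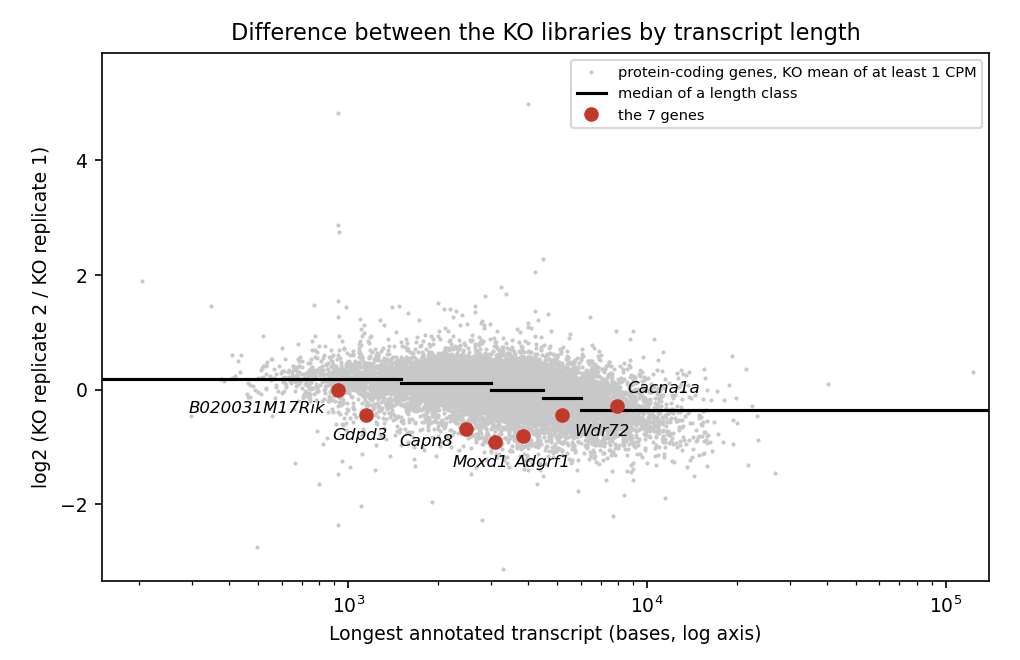
Log2 ratio of KO replicate 2 over KO replicate 1 against the longest annotated transcript (bases, log axis) for protein-coding genes whose KO mean reached 1 CPM (grey), with medians of 5 length classes (black) and the 7 genes (red). Moxd1, Adgrf1 and Capn8 lie in the lowest 3% of their classes, and Cacna1a lies beside its class median.

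Relatives of the genes other than B020031M17Rik, for which no list was made, were measured in the same libraries to ask whether whole families differed. Across 6 lists holding 55 family members, partners and pathway genes, 28 were expressed enough to test. None was called by edgeR with genotype as the only term (0 of 28, against 1.91% of all tested genes). By other criteria, 5 had an unadjusted edgeR p under 0.05, 2 were called by DESeq2 and 0 by limma-voom. The share of 1.91% is no background for these other counts, since DESeq2 called more genes in all than edgeR. Their own shares over all genes are not given here. Their log2 fold changes had a median of 0.05, against 0.006 over all tested genes. The 2 calls of DESeq2 were Capn10, at 34.3 CPM in KO and 18.1 CPM in WT (log2 fold change 0.92 and adjusted p = 0.0519 in edgeR), and Capn11, at 0.189 CPM in KO and 1.16 CPM in WT (-2.32, adjusted p = 0.089 in edgeR). Capn10, a widely expressed calpain, and Capn11, known from testis, had opposite signs. Both were called by edgeR without KO replicate 1 (adjusted p = 0.0414 and 0.00112) and without WT replicate 2 (adjusted p = 0.0423 and 0.0146), and Capn11 alone without WT replicate 1 (adjusted p = 0.0158).

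The relatives with the highest KO level per length are given family by family, as log2 fold changes. None of them was called by edgeR with genotype as the only term. For Moxd1, 1 of 3 copper monooxygenase genes was tested, the peptide-amidating enzyme gene Pam (-0.28, SE 0.271), while Dbh had 1 read in all libraries together and Moxd2 none. For Adgrf1, the tested relative was Adgrf5, an adhesion receptor of endothelium and epithelium whose gene lies 35.7 kb away, with -0.01 (SE 0.237). For Capn8, 11 of 15 listed genes were tested, with a median of 0.04. The list holds calpains, the small subunit genes Capns1 and Capns2 and the calpain inhibitor gene Cast. Capns1 had -0.49 (SE 0.210, adjusted p = 0.383 with edgeR). Capn9, which forms a complex with Capn8 in the stomach, had 1 and 0 reads in KO and 1 and 7 in WT.

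For Wdr72, its close relative Wdr7 had 0.12 and the rabconnectin genes Dmxl1 and Dmxl2 0.30 and 0.40. None was called with genotype as the only term. For Gdpd3, 8 of 13 genes of lysophospholipid cleavage and lysophosphatidic acid signalling were tested, with a median of 0.12. Gde1, a related phosphodiesterase gene, had 0.34 (SE 0.224), and Enpp2, which encodes autotaxin, the secreted enzyme that makes lysophosphatidic acid in plasma, had 0.06 (SE 0.184). For Cacna1a, 4 of 17 channel subunit genes were tested, with a median of -0.30. Cacna1d, an L-type channel gene and the highest of them per length, had 2.72 ± 0.412 CPM in KO and 3.72 ± 0.349 CPM in WT (SD, n = 2 each; -0.44, SE 0.261).

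The 7 genes lie on 7 chromosomes, and the genes around them were used to see how far each difference extended. Within 500 kb of a member, 121 other genes were tested. Of these 2 were higher and 6 lower in KO (8 called, 6.61%, against 1.91% of all tested genes), and the median log2 fold change was 0.0. The calls were 1 of 9 genes tested around Moxd1, 2 of 7 around Adgrf1, 4 of 45 around Cacna1a and 1 of 7 around B020031M17Rik. Of the 11 nearest tested genes on either side, 1 was called. Gdpd3 stands between Mapk3, which ends 0.5 kb before it, and Ypel3, which begins 1.3 kb after it. Mapk3, a MAP kinase gene, had a log2 fold change of -0.13 (SE 0.198) and Ypel3 of 0.08 (SE 0.185), both within their SE of 0. On the sides of Capn8, Capn2 had -0.29 (SE 0.177) and the complement regulator gene Susd4 0.70 (SE 0.196, adjusted p = 0.153 with edgeR). Beside Moxd1, the syntaxin gene Stx7 had -0.06 and Ccn2 -0.84 (SE 0.244, adjusted p = 0.169 with edgeR).

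Where a neighbour was called, it did not always move with the member. Near Moxd1, the pantetheinase gene Vnn1, at 318 kb, fell by 1.51 on the log2 scale (adjusted p = 0.0263). Near Adgrf1, the oxysterol hydroxylase gene Cyp39a1, at 343 kb, rose (1.17, adjusted p = 0.0434; 0.0794 with library size alone), and Rcan2, an inhibitor of calcineurin, at 477 kb, fell (-1.66, adjusted p = 0.0192). Around Cacna1a, 4 of 45 tested genes fell: Mri1, Fbxw9, Gadd45gip1 and the erythroid factor Klf1, with log2 fold changes of -1.16, -1.33, -1.18 and -2.17. For Mri1 the adjusted p was 0.101 when scaled by library size alone and 0.0562 when KO replicate 2 was left out. The adjacent genes of Cacna1a, Ier2 (0.63, SE 0.181) and Ccdc130 (0.28, SE 0.234), were not called. All adjusted p here are from edgeR's quasi-likelihood test.

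Of the 6 members with a tested gene within 500 kb, B020031M17Rik alone had a nearest tested gene that was called. Zfp131, a zinc finger gene 158.5 kb from it, rose to 25.8 CPM in KO, against 10.5 CPM in WT (log2 fold change 1.28, SE 0.181, adjusted p = 0.0157, edgeR). Its reads were 1214 and 1011 in KO and 436 and 412 in WT, with no overlap. Between 500 and 1000 kb from a member, 3 of 57 tested genes were called (5.26%, against 1.91% of all tested genes), and they are named after their values were seen. Nnt, the mitochondrial transhydrogenase gene, lies 540 kb from B020031M17Rik and fell by 1.16 on the log2 scale (2363 and 2685 reads in KO, 5423 and 5207 in WT; adjusted p = 0.032 with edgeR, and 0.0581 without KO replicate 1). Gm16551, 565 kb from Wdr72, rose (777 and 966 reads in KO, 63 and 69 in WT; log2 fold change 3.60, adjusted p = 0.00132 with edgeR), while no gene within 500 kb of Wdr72 was expressed enough to test. Gpt2, 852 kb from Cacna1a, fell by 1.02 (adjusted p = 0.0347 with edgeR, and 0.0815 without KO replicate 1).

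**Figure D4:**
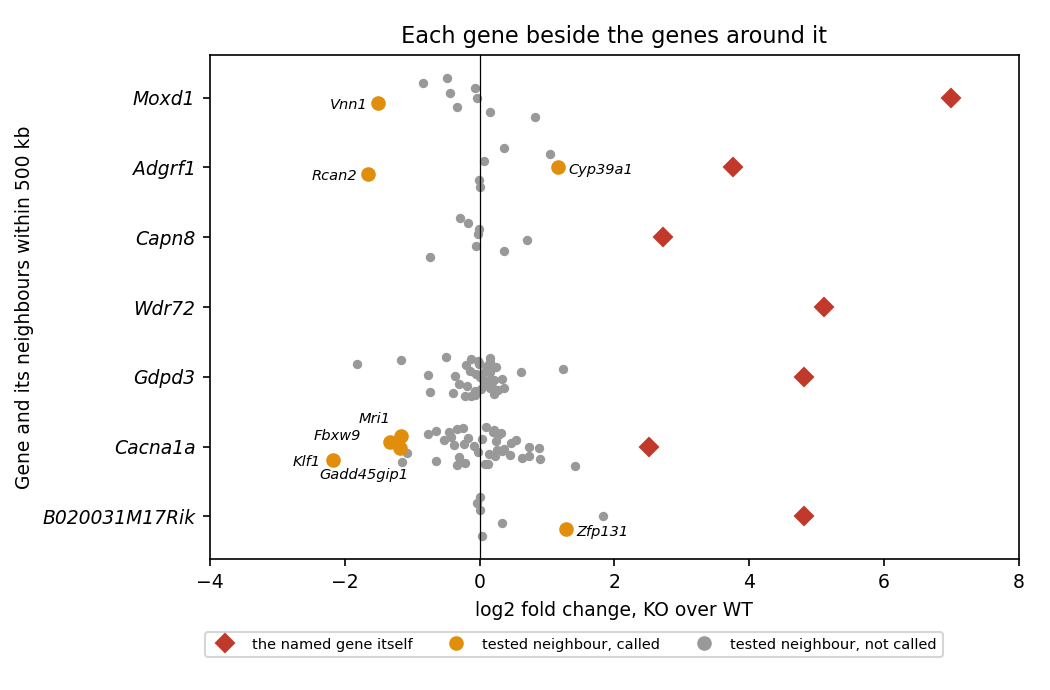
Log2 fold change, KO over WT, of each of the 7 genes (red diamonds) and of the tested genes within 500 kb (circles, orange where called by edgeR and grey where not); position within a row carries no value. The 7 genes stand at 2.52 to 7.0, the 8 called neighbours between -2.17 and 1.28, and Wdr72 has no tested neighbour.

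Sequence features did not set the 7 transcripts apart as one class. Longest transcripts ranged from 925 bases (B020031M17Rik) to 7926 bases (Cacna1a), against a median of 3418 over 11056 protein-coding genes whose KO mean reached 1 CPM. The pentamer GGACT, counted on the sense strand of the longest transcript, occurred 2.61 times per kb in Gdpd3, 2.16 in B020031M17Rik and 2.12 in Wdr72, all above the upper quartile of 1.49 of those genes. It occurred 0.403 times per kb in Capn8 and 0.519 in Adgrf1, below the lower quartile of 0.648, with Moxd1 (1.29) and Cacna1a (1.01) between. This pentamer was chosen after the counts were seen. No stretch of 101 bases of the longest transcript of Moxd1, Adgrf1, Capn8, Wdr72 or B020031M17Rik occurred in an annotated transcript of another gene; exons outside the longest transcript were not searched. In Gdpd3, 9.06% of such stretches, and in Cacna1a 0.664%, occurred in the antisense gene named above.

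Several of the 7 genes are known from other organs, and markers of those organs were read in the same libraries. Stomach epithelium markers summed to 1.67 to 2.03 CPM in KO and 0.814 to 1.37 CPM in WT, nearly all of it the proton pump gene Atp4a (88 and 61 reads in KO, 54 and 29 in WT), with 4 of 8 matched markers, Gkn1, Gkn2, Gkn3 and Muc5ac, at 0 reads everywhere. Kidney tubule markers summed to 2.57 to 3.37 CPM in KO and 0.604 to 0.943 CPM in WT. Nearly all of that was the endocytic receptor gene Lrp2, which rose to 152 and 102 reads in KO, against 32 and 21 in WT (adjusted p = 0.0238, edgeR), while 3 of the 8, Slc12a1, Aqp2 and Kap, had 0 reads. Neuron markers summed to 22.1 to 23.8 CPM in KO and 12.1 to 12.5 CPM in WT, nearly all of it the vesicle protein gene Syt1, which rose (1.0, adjusted p = 0.0412, edgeR). The other tested neuron markers, Rbfox3 and Syp, had log2 fold changes of -0.35 and -0.30 and were not called, Slc17a7 was at 0 and Snap25 had 1 to 4 reads. Pancreas acinar markers stayed at 0.130 to 0.150 CPM in KO and at most 0.0525 CPM in WT. Intestinal markers summed to 44.3 to 71.9 CPM in KO and 90.7 to 153 CPM in WT, almost all from Fabp2, with Cdx1, Cdx2 and Sis at 0.

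All 8 hepatocyte markers were detected, with sums of 80230 to 90823 CPM in KO and 71527 to 82736 CPM in WT. Sums were 49.3 to 58.2 CPM in KO and 44.5 to 48.2 CPM in WT for bile duct cells, and 169.4 to 175.1 CPM in KO and 167.9 to 234.5 CPM in WT for stellate cells and fibroblasts. Fetal liver markers summed to 2.444 to 2.599 CPM in KO and 2.099 to 2.496 CPM in WT. Adipocyte markers summed to 6.29 and 19.9 CPM in KO replicates 1 and 2 and to 30.6 and 68.5 CPM in WT replicates 1 and 2, mostly from the lipid droplet gene Cidec (5.80 and 13.5 CPM in KO, 27.2 and 58.3 CPM in WT; log2 fold change -2.15, adjusted p = 0.0711, edgeR). The fat cell hormone genes Adipoq and Lep instead separated the replicates: Adipoq had 0 and 71 reads in KO and 1 and 70 in WT, and Lep 0 and 36 in KO and 0 and 41 in WT. Plin1, with 3 and 18 reads in KO and 1 and 15 in WT, was likewise high in replicate 2 of both genotypes. Kupffer cell markers summed to 272 to 289.9 CPM in KO and 124.7 to 184.6 CPM in WT, and 2 of 8, Marco and Csf1r, rose (edgeR), where 0.961% of all tested genes were called higher. The part of these shifts in the levels of the 7 genes was not tested. On lists of liver genes that differ between the sexes, 11 of 28 tested male-biased genes rose and 0 fell (median log2 fold change 0.86), and 1 of 19 tested female-biased genes rose and 10 fell (median -1.91). Over all tested genes, 0.961% were called higher, 0.947% were called lower and the median was 0.006. The gene that rose was Sult1e1, named above; Selenbp2 and Ugt2b38 rose most on the male-biased list (4.05 and 3.57), and Cyp2b9 fell most on the female-biased list (-6.27). Both lists were written by hand with earlier results of these data known, so these shares are a description. The 7 genes are on neither list, which says nothing about whether they differ between the sexes.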

How the data were processed

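Each deposited file lists, for 1 library, a raw whole-number count of reads for every Ensembl gene. The submitters' processing notes name TopHat2 2.1.1, HTSeq 0.6.0 and build mm10. Which annotation release and strand setting were used is not given here. GENCODE M21, on the same assembly, named 35533 of 37315 identifiers, and 1782 had no match (0.143% to 0.194% of a library's counts).

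From these counts, genes were filtered with filterByExpr (minimum count 10, minimum total 15), scaled with TMM and compared, KO over WT, with edgeR 4.0.16 (quasi-likelihood F test, two-sided; R 4.3.3), with genotype as the only term and Benjamini-Hochberg adjustment over all 13836 tested genes; called genes had an adjusted p under 0.05. Fold changes used a prior count of 2, and SE was derived from the unshrunk log2 fold change and the square root of F. The steps were tested on simulated counts.

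The 7 genes and all lists were chosen with earlier results of these data known. Named besides them are Fto, called or highest relatives, called or nearest neighbours, up to 5 switch-like genes with assigned names and leading genes of the lists. Relatives, partners, markers and sex-biased genes are hand-written lists; 1 of the stomach markers, Cblif, had no match. Alternatives were other scaling, no filter, DESeq2 1.42.0, limma-voom (limma 3.58.1), a replicate block, each library left out, other limits and windows.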

Additional observations from a re-analysis of the deposited data

How the results depend on the processing

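The fitted log2 fold changes of the 7 genes were positive in all 84 combinations of gene and alternative. The choice of the genes fixed this sign in advance, so it is no sign of robustness. Of the 84 values, 18 moved by more than the SE. The widest ranges were 3.56 to 8.14 for B020031M17Rik, 4.16 to 6.62 for Wdr72 and 6.13 to 8.18 for Moxd1, whose WT counts are 0 to 2 reads a library. The counts of genes called higher and lower, 133 and 131, became 279 and 280 in DESeq2, 435 and 394 when low counts were kept, and 93 and 83 when scaled by library size alone. Leaving out 1 library gave 231 to 341 higher and 229 to 292 lower. The neighbours called, 8 in number, became 16 with no filter, 3 within 250 kb, 11 within 1000 kb and 9 to 12 without 1 library. The relatives called, 0 in number, became 2 with no filter, 2 with DESeq2 and 0 to 2 without 1 library. The 25 switch-like genes became 52 at a ratio of 2, 12 at a ratio of 8 and 40 to 49 without 1 library. The 25 mirror genes became 61, 11 and 39 to 46. At a limit of 1 CPM, Cacna1a joined the 4 members that met the condition.

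Equal replicate numbers are not said to pair animals. With a replicate block, 1404 of 13836 tested genes were called higher and 1325 lower. Among them were 34 of 121 neighbours and 9 of 28 relatives, so calls rose over the whole table and not only in these sets. The neighbour and relative counts under the other settings above stand without shares. They too are to be read beside the counts over all genes. The differences between replicates 2 and 1 of KO and of WT correlated with r = 0.536 across tested genes, which are not independent. With 2 libraries a genotype, and a few WT reads for 4 of the genes, ratios are bounded loosely. The cause of these shifts was not tested.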
